A study of Arabidopsis thaliana with 12 samples.

Results

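The 38 genes described here are nuclear genes of Arabidopsis thaliana that encode the light-harvesting antennae and the subunits of photosystem I and photosystem II. They were taken by locus from a list of LHCA, LHCB, PSB and PSA genes; the rule uses no measured value, but the list was drawn up with earlier results of these data known. All 38 were found among the 28642 genes of the table. They comprise 17 antenna genes, 9 photosystem II subunit genes and 12 photosystem I subunit genes.

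RNA of the first leaf pair was sequenced from seedlings grown in Petri dishes and harvested at 10 DAS, the labels' term for their age, in 12 samples. The 4 groups, with 3 biological replicates each per the labels, were control medium, medium with 25 mM mannitol, medium with 0.1 µM NAA, and medium with both. Mannitol, a sugar alcohol, serves in such media as a mild osmotic stress, and NAA (1-naphthaleneacetic acid) is a synthetic auxin. The labels name no line, genotype or pooling, and give the leaf stage as proliferation.

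The values reported are p-values, 1 per gene for each treatment against control, as they stand in the authors' deposited table. They give neither the direction nor the size of a difference, and no replicate error or depth can be set beside them. The headers of the 24 columns for single libraries match no sample label, so those columns were not used and expression levels are not analysed here. The p-value columns are headed by the comparison and the words Detection Pval, which the sources used do not explain. The test behind the p-values, and any earlier adjustment for multiple testing, are not given in the sources used. The p was not under 1 for 7049 genes with mannitol, 7272 with NAA and 6804 with both. A further 1235, 1290 and 1218 genes, in that order, shared nearly the same p, that of a normal z of 1 taken on both sides. What gave rise to these repeated values was not tested. The word passed is used of a gene whose p, adjusted by the Benjamini-Hochberg method over all 28642 genes, was under 0.05. All 3 comparisons use the same control group, so their p-values for a gene are not independent.

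Antenna proteins bind chlorophyll in the thylakoid membrane of the chloroplast and pass absorbed light energy to the photosystem cores. Photosystem II uses it to oxidise water, and photosystem I to reduce ferredoxin. The reaction centre proteins are encoded in the chloroplast, while the antennae and most small subunits are encoded in the nucleus and imported. In leaf mesophyll these nuclear mRNAs are known to be abundant and to respond to light, the circadian clock and the state of the chloroplast.

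With NAA and mannitol together, 26 of the 38 genes passed, where 26.3% of all genes did. In the set of 21121 genes whose p was under 1 throughout, which holds every one of the 38, the share was 35.2%, and it was 17.4% with NAA and 12.2% with mannitol. The median p of the 38 was 0.00293, against 0.293 over all genes and 0.0805 over that smaller set, in the authors' deposited table. Neither comparison set was matched to the 38 for expression level, and the part of abundance in these shares was not tested. The smaller set still holds genes at the repeated p described above, such as the root marker RHD6. With NAA alone 5 of the 38 passed, next to 12.8% of all genes, and with mannitol alone 3 did, next to 9.07%. At this threshold the shares with either compound alone were thus near those of all genes (13.2% and 7.89% of the 38). The median p of the 38 was nonetheless lower in the authors' deposited table. With NAA it was 0.0957, against 0.406 over all genes and 0.24 over the smaller set. With mannitol it was 0.178, against 0.459 and 0.299. Whether the combined treatment differed from each compound alone was not tested, since no value compares those groups. In whole leaves a different number of cells of a type and a different amount of RNA per cell cannot be told apart.

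**Figure D1:**
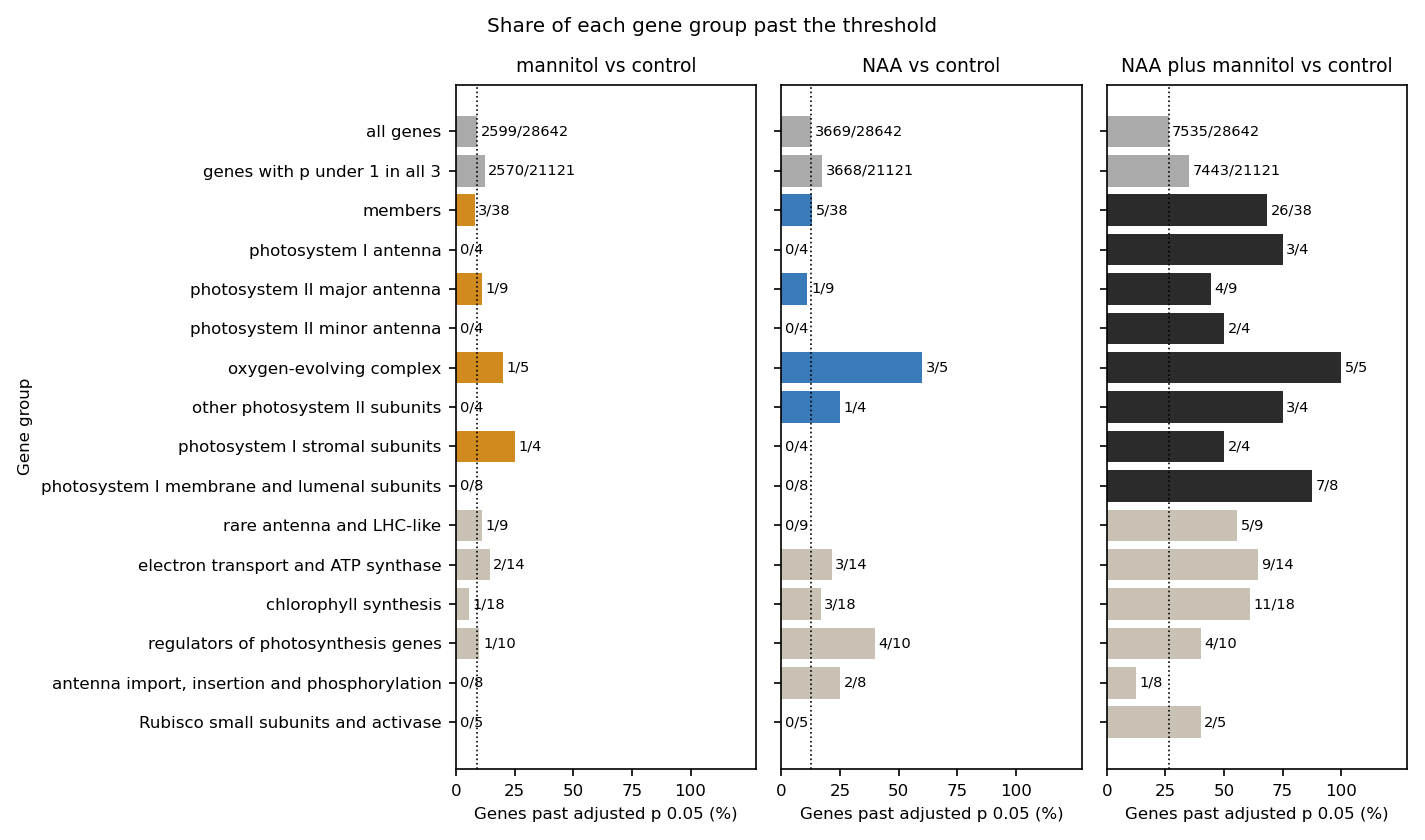
Percentage of genes in each group with an adjusted p under 0.05 in each comparison with control; the labels give the number that passed over the number in the table, grey bars are all genes and the genes whose p was under 1 throughout, coloured bars the 38 genes and their subgroups, and pale bars the other photosynthesis lists. The dotted line is the share of all genes. In the combined treatment 26 of 38 passed, with the highest share in the oxygen-evolving complex (5 of 5).

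The p-values of the 38 genes in the combined treatment were mostly of moderate size. An unadjusted p under 0.01 was found for 25 of them, where 25.1% of all genes had one. An unadjusted p under 0.05 was found for 31 in the combined treatment (33.9% of all genes), 15 with NAA (21.8%) and 7 with mannitol (17.9%). At a Bonferroni-adjusted p under 0.05, however, PSBO2, PSBP1 and PSAN alone of the 38 were left in the combined treatment, 3 of 38 against 8.46% of all genes. None was left with NAA or mannitol, where 3.31% and 2.44% of all genes were. With unadjusted p under 0.01 the counts for those were 6 of 38 (14.3% of all genes) and 3 of 38 (10.8%). None of the 38 was listed at a p of 0, as 423 genes were in the combined treatment. The call depends on the reference distribution, and which one applies to these p-values was not tested. If each p is read as a normal z and referred instead to Student's t with 4 degrees of freedom, none of the 38 passed in any comparison. Of all genes, 79 passed with mannitol, 83 with NAA and 610 with both, with a p of 0 set at a z of 38.5. Few genes of any kind could thus pass in that reading. Of the 38, 23 then had an unadjusted p under 0.05 in the combined treatment (22.6% of all genes), 5 with NAA (12.5%) and 3 with mannitol (9.48%).

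**Figure D2:**
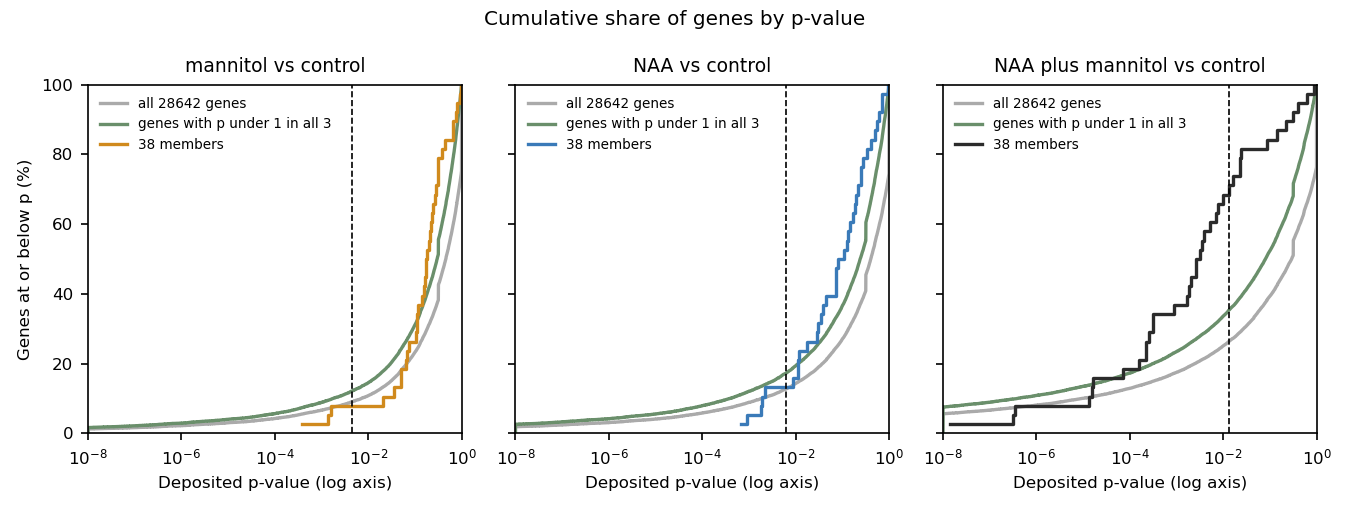
Cumulative percentage of genes at or below each p-value (log axis, values under 1e-08 drawn at the left edge) for the 38 genes, for all genes and for those whose p was under 1 throughout; the dashed line is the largest p that passed. At a p of 0.01 in the combined treatment the curve of the 38 genes (25 of 38) lies above both others, while with mannitol it runs near them at small p.

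The 5 genes of the oxygen-evolving complex, the extrinsic proteins that shield the manganese cluster where water is split, all passed in the combined treatment. PSBP1 (AT1G06680), an extrinsic protein, had the smallest p of the 38. Its p was 1.4e-08 with both compounds, 0.000672 with NAA and 0.18 with mannitol in the authors' deposited table. After adjustment these were 2.43e-07, 0.0082 and 0.605, so that PSBP1 passed in both comparisons with NAA in the medium and not with mannitol alone. PSBO2 (AT3G50820), of the pair of genes for the manganese-stabilising protein, was the sole member of the 38 to pass in all 3 comparisons. Its p in the authors' deposited table was 3.1e-07 with both, 0.000908 with NAA and 0.00139 with mannitol (adjusted p = 4.22e-06, 0.0104 and 0.0195). Among all genes 855 (2.99%) passed in all 3.

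The other gene of that pair, PSBO1 (AT5G66570), passed in the combined treatment (adjusted p = 0.000155 computed from the authors' deposited table). Its p of 0.00867 with NAA in the authors' deposited table was just short of passing (adjusted p = 0.0628), and with mannitol it was 0.215. PSBQ2 (AT4G05180), a gene of another extrinsic protein, passed with both compounds and with NAA (adjusted p = 0.000145 and 0.0182 computed from the authors' deposited table). Its partner PSBQ1 (AT4G21280, PSBQA in RefSeq) passed with both compounds only (adjusted p = 0.00211), with an adjusted p of 0.474 for NAA and 0.454 for mannitol, computed from the authors' deposited table. Of the 5 genes, 3 passed with NAA (12.8% of all genes) and 1 with mannitol (9.07%).

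The PSBO pair is shown over the stretch where the coding sequences differ most, because these 2 copies, unlike LHCB1, share no 50-base window of transcript. The sequences are from RefSeq TAIR10.1, given 5′ to 3′ on the coding strand, and capitals mark the bases that differ. The window covers coding bases 71 to 160 of PSBO1 (chr5:26568814-26568903, plus strand) and 68 to 157 of PSBO2 (chr3:18892155-18892244, minus strand), and 27 of its 90 bases differ.
PSBO1: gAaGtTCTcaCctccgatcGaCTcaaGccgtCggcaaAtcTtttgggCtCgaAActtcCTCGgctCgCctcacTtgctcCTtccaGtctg
PSBO2: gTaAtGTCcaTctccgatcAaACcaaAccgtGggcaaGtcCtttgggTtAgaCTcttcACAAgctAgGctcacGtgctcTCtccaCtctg

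Over the whole coding sequence the PSBO genes were 83.4% identical, and the PSBQ genes 76.3%. In both pairs each gene passed in the combined treatment, and 1 gene of each pair passed with NAA.

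Of the other photosystem II subunits, PSBR, PSBW and PSBX passed in the combined treatment and PSBY did not. PSBW (AT2G30570), a small membrane subunit known to take part in the assembly of photosystem II with its antennae, had a p of 1.36e-05 with both compounds, 0.00192 with NAA and 0.242 with mannitol in the authors' deposited table. It passed with both and with NAA (adjusted p = 0.000132 and 0.0191 computed from the authors' deposited table). PSBR (AT1G79040), a subunit near the oxygen-evolving complex, passed with both (adjusted p = 0.00508), and its p was 0.0719 with NAA and 0.168 with mannitol in the authors' deposited table. PSBX (AT2G06520) had p-values of 0.0102, 0.401 and 0.0358 for both, NAA and mannitol in the authors' deposited table, and its adjusted p with both was 0.0405. PSBX was thus the member that passed by the smallest margin. PSBY (AT1G67740) had a p of 0.219 with both compounds, 0.717 with NAA and 0.172 with mannitol in the authors' deposited table.

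The photosystem I subunits passed in 9 of 12 cases in the combined treatment (26.3% of all genes), in none with NAA (12.8%) and in 1 with mannitol. That 1 of 12 (8.33%) is close to the 9.07% of all genes. PSAN (AT5G64040), a lumenal subunit at the plastocyanin docking side, had the smallest p of these, 3.49e-07 with both compounds, against 0.0116 with NAA and 0.175 with mannitol in the authors' deposited table (adjusted p = 4.73e-06, 0.0782 and 0.594). PSAF (AT1G31330), the plastocyanin-docking subunit itself, passed with both (adjusted p = 0.0133 computed from the authors' deposited table). The subunits of the side where the mobile antenna of photosystem II docks, PSAL (AT4G12800), PSAO (AT1G08380) and PSAH2 (AT1G52230), also passed with both (adjusted p = 0.00118, 0.00154 and 0.00214 computed from the authors' deposited table). With NAA their p-values in the authors' deposited table were 0.0394, 0.0178 and 0.0719, and none passed. PSAK (AT1G30380) and PSAG (AT1G55670), at the antenna side of photosystem I, passed with both (adjusted p = 0.0153 and 0.0231 computed from the authors' deposited table). Of the 8 genes for membrane and lumenal subunits only PSAH1 did not pass in the combined treatment.

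The stromal subunits PSAD and PSAE form the ferredoxin-docking surface of photosystem I together with a chloroplast-encoded subunit. Both PSAD genes passed in the combined treatment, with an adjusted p of 0.00181 for PSAD1 (AT4G02770) and 0.0133 for PSAD2 (AT1G03130 computed from the authors' deposited table). PSAD1 was also 1 of the 3 genes that passed with mannitol alone (p = 0.00162 in the authors' deposited table, adjusted p = 0.0221). Neither PSAE gene passed. PSAE1 (AT4G28750) had an adjusted p of 0.0506 with both compounds, just outside the threshold, and PSAE2 (AT2G20260) one of 0.951, computed from the authors' deposited table.

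Of the 4 main antenna genes of photosystem I, LHCA1 (AT3G54890), LHCA2 (AT3G61470) and LHCA3 (AT1G61520) passed in the combined treatment and LHCA4 (AT3G47470) did not. Their p-values with both compounds in the authors' deposited table were 0.000225, 0.0019, 0.00357 and 0.0226 in that order (adjusted p = 0.00158, 0.0099, 0.0168 and 0.0781). LHCA1 and LHCA4 are known to form a heterodimer in the antenna belt, as LHCA2 and LHCA3 do. None of the 4 passed with NAA, where the smallest p was 0.0292 for LHCA2, or with mannitol, where it was 0.143 for LHCA4, in the authors' deposited table. Of all genes, 26.3% passed with both compounds, 12.8% with NAA and 9.07% with mannitol.

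The antenna genes of photosystem II passed in 6 of 13 cases in the combined treatment (46.2%), next to 26.3% of all genes and 35.2% of those whose p was under 1 throughout. LHCB1, LHCB2 and LHCB3 proteins form the major trimeric antenna, and 4 of these 9 genes passed (44.4%). LHCB2.3 (AT3G27690) led them, with a p of 7.03e-05 with both compounds, 0.0454 with NAA and 0.021 with mannitol in the authors' deposited table (adjusted p = 0.000566, 0.215 and 0.158). LHCB2.2 (AT2G05070) passed with both (adjusted p = 0.0295), while LHCB2.1 (AT2G05100) had an adjusted p of 0.339, computed from the authors' deposited table. LHCB3 (AT5G54270), a subunit of trimers next to the core, did not pass in any comparison. Its p in the authors' deposited table was 0.0239 with both, 0.0112 with NAA and 0.111 with mannitol.

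The minor antennae, which link the trimers to the core as single proteins, passed in 2 of 4 cases in the combined treatment, next to the same 26.3% of all genes. LHCB5 (AT4G10340, CP26) and LHCB6 (AT1G15820, CP24) passed with both compounds (adjusted p = 0.00912 and 0.0181 computed from the authors' deposited table). LHCB4.1 (AT5G01530) and LHCB4.2 (AT3G08940), both genes of CP29, did not (adjusted p = 0.23 and 0.577 computed from the authors' deposited table). Neither LHCB4 gene had a p under 0.05 in any comparison in the authors' deposited table, where the smallest was 0.088 for LHCB4.1 with both compounds.

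**Figure D3:**
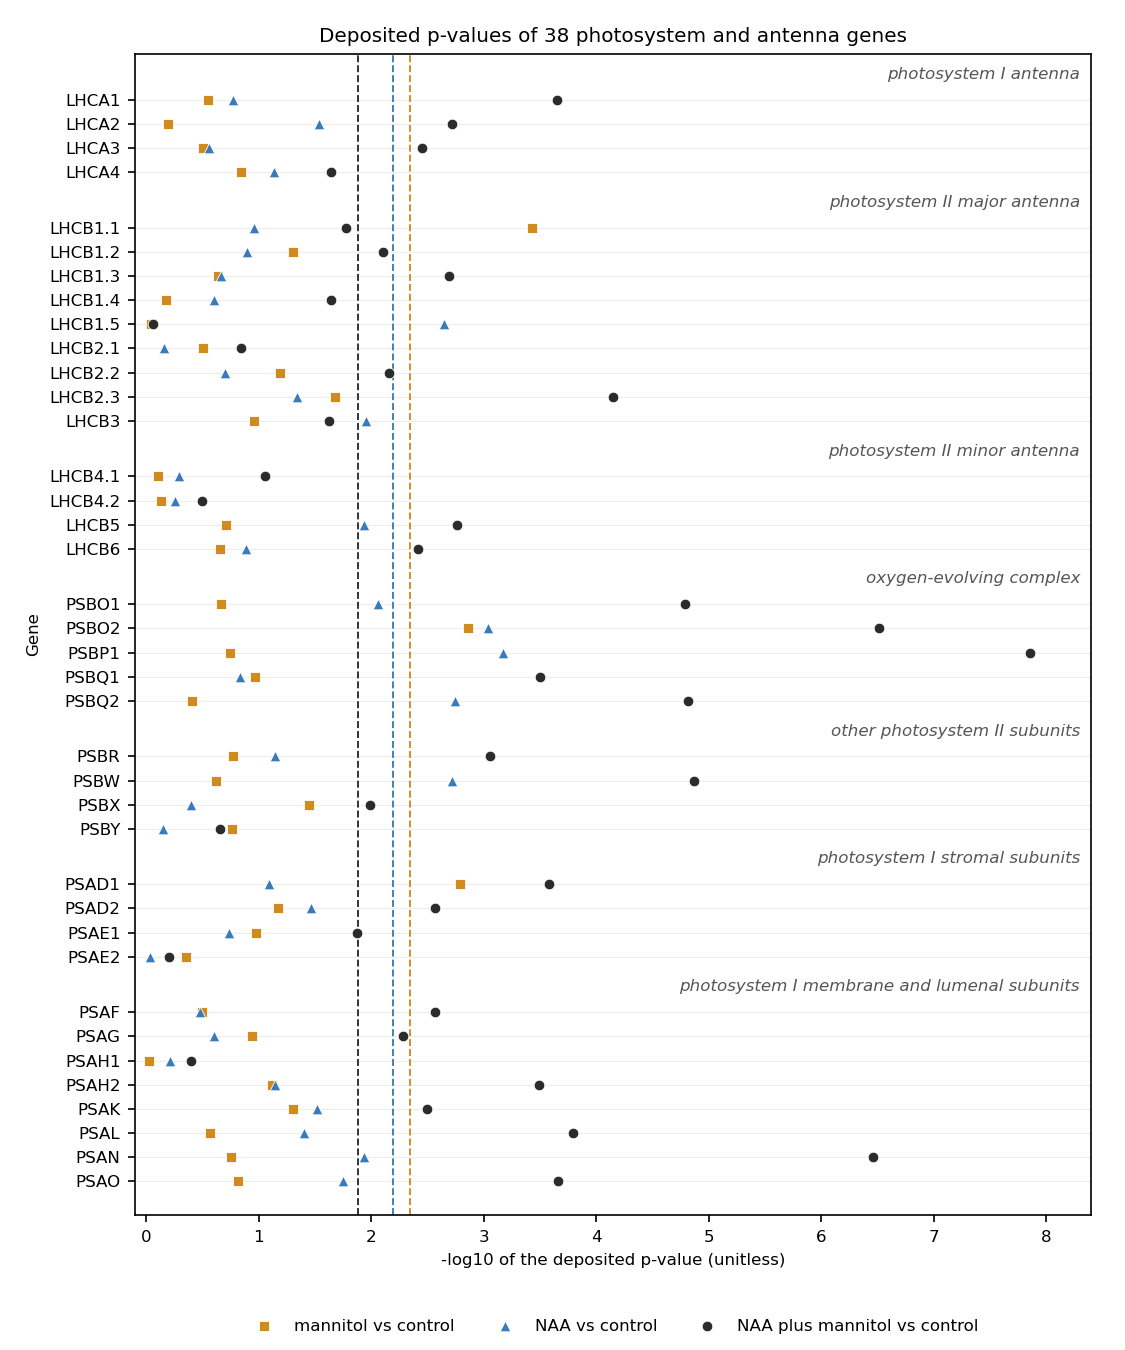
Deposited p-value of each of the 38 genes, as -log10 p, in each comparison with control (squares mannitol, triangles NAA, circles both compounds), ordered by role. Dashed lines mark the largest p that passed in each comparison, 0.00453 for mannitol, 0.00636 for NAA and 0.0131 for both, and the circles of PSBP1, PSBO2 and PSAN lie farthest to the right.

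The 5 LHCB1 genes lie in 2 clusters of similar copies, and they did not all have the same calls. LHCB1.1, LHCB1.2 and LHCB1.3 (CAB2, CAB3 and CAB1 in RefSeq) lie side by side on chromosome 1, with gaps of 1.15 and 1.92 kb between neighbours, and were 95.6% to 96.4% identical in coding sequence. LHCB1.4 and LHCB1.5 lie 1.04 kb apart on chromosome 2 on opposite strands and were 91.4% identical. Between the clusters identity was 86.7% to 90.4%, a range that holds the value of the PSAH pair (87%). LHCB1.2 (AT1G29910) and LHCB1.3 (AT1G29930) passed with both compounds (adjusted p = 0.0328 and 0.0104 computed from the authors' deposited table). LHCB1.1 (AT1G29920) did not (adjusted p = 0.0608), and it passed with mannitol alone, where its p in the authors' deposited table was 0.000375 (adjusted p = 0.00678). LHCB1.5 (AT2G34420) passed with NAA alone, where its p in the authors' deposited table was 0.00226 (adjusted p = 0.0218), and its p was 0.864 with both and 0.904 with mannitol. LHCB1.4 (AT2G34430) passed in no comparison, with an adjusted p of 0.0784 with both, computed from the authors' deposited table. LHCB1.1 and LHCB1.5 were the members that passed with 1 compound and not with both.

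The first 90 coding bases of the 3 neighbouring copies are shown because this is the stretch where they differ most, and even here 9 of 90 bases differ. Capitals mark positions where the 3 are not all alike (RefSeq TAIR10.1, coding strand, 5′ to 3′). The windows lie at chr1:10475803-10475892 (minus strand), chr1:10473157-10473246 (minus strand) and chr1:10478071-10478160 (plus strand).
LHCB1.1: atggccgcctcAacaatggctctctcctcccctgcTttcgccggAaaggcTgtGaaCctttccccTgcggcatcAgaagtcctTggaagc
LHCB1.2: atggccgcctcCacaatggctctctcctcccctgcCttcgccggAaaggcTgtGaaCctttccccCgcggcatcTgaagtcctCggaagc
LHCB1.3: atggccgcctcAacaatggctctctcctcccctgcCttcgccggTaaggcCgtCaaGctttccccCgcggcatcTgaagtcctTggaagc

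Over all 804 coding bases the 3 copies differed at 47 positions. How reads that match more than 1 copy were counted is not stated in the sources used, so the separate calls of LHCB1 genes are uncertain. On the same strand, 79.5% of the 50-base windows of the LHCB1.1 transcript occurred in no other annotated gene, 89.4% of those of LHCB1.2 and 83% of those of LHCB1.3. The shares were 86.3% and 82.7% for LHCB1.4 and LHCB1.5. LHCB2.1 and LHCB2.2 shared windows with each other (79.8% and 71.8% unique), and LHCA2 with AT5G28450 (91.2%). Those 8 genes were the members that shared a same-strand window, and no PSB or PSA gene did.

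Another gene was annotated on the opposite strand within 15 of the 38 loci, in 8 of the 26 that passed in the combined treatment and in 7 of the 12 that did not. The share over all genes was not computed, and a link between overlap or shared windows and the calls was not tested. The long noncoding RNA gene AT2G08665 is annotated over the whole of LHCB1.5 on the opposite strand, and 0% of the windows of LHCB1.5 were unique when both strands were counted. The share was 41.2% for PSAG, 50.8% for PSAH1 and 61.4% for LHCB2.3. Libraries were stranded per the labels' protocols, but whether counting used strand is not stated there. Without it, reads from the overlapping stretches of these genes and their antisense partners cannot be told apart. An overlapping gene on the same strand was annotated for PSBP1 and PSAD2, without a shared 50-base window.

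**Figure D4:**
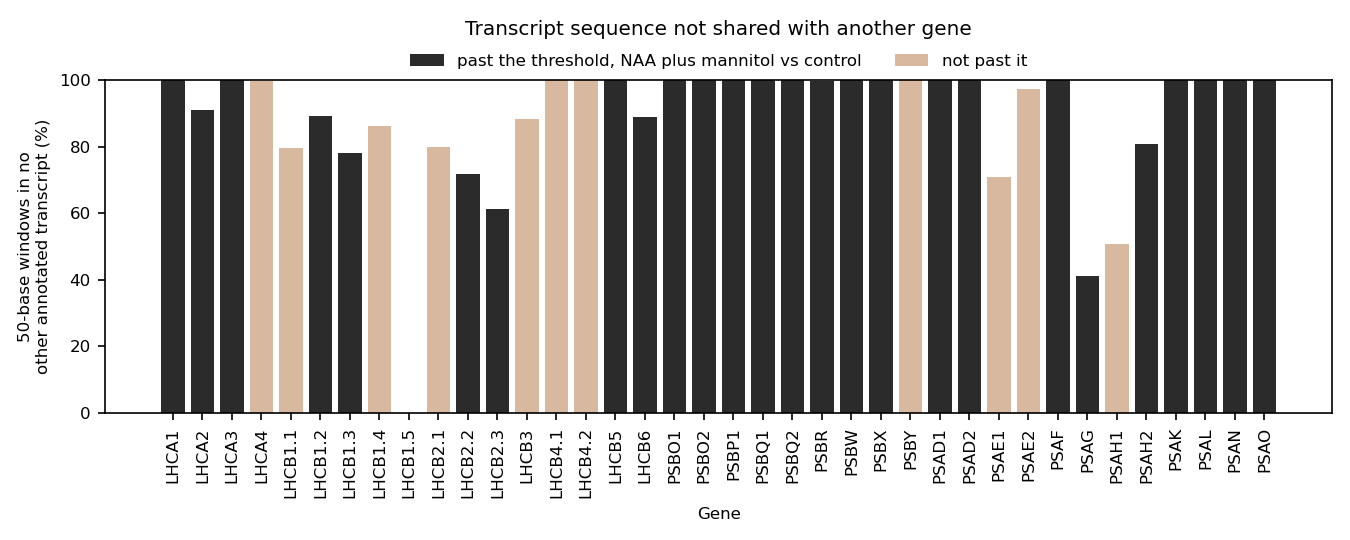
Percentage of 50-base windows of each transcript that occur in no other annotated transcript of TAIR10.1, both strands counted; dark bars are the 26 genes that passed in the combined treatment and pale bars the 12 that did not. LHCB1.5 stands at 0% and PSAG at 41.2%, while 17 of the 26 and 3 of the 12 stand at 100%.

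In the PSAH pair 1 gene passed in the combined treatment and the other did not, and the difference between them was not tested. PSAH2 had p-values of 0.00032 with both compounds, 0.0719 with NAA and 0.0759 with mannitol in the authors' deposited table. PSAH1 (AT3G16140) had 0.4, 0.619 and 0.947 there. Both genes encode the same docking subunit, and their coding sequences were 87% identical. The window below is where they differ most, at 18 of 90 bases (coding bases 19 to 108 in each; chr3:5469308-5469397, minus strand, and chr1:19454920-19455009, plus strand). Capitals mark the bases that differ.
PSAH1: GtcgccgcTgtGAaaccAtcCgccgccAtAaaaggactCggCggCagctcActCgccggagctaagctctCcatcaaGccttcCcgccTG
PSAH2: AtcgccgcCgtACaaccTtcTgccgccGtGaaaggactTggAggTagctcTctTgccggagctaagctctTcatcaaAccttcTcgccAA

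Neither gene shared a 50-base window with the other, but AT3G16130 overlaps PSAH1 on the opposite strand and AT1G52240 overlaps PSAH2. The other pairs were PSAD (86.3% identical), where both genes passed with both compounds, and LHCB4 (81.1%) and PSAE (76.9%), where neither did.

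As gene models the 38 were short, with a median coding length of 765 bases against 1047 over 27444 nuclear protein-coding genes of TAIR10.1, and a median of 3 exons against 4. A single exon was annotated for 10 of them (26.3%, against 20% of those genes), among them all 5 LHCB1 genes and both PSAD genes. They lie on all 5 chromosomes, 14 on chromosome 1, 7 each on chromosomes 2 and 3, 6 on chromosome 4 and 4 on chromosome 5.

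The 250 bases before each annotated gene start were searched on both strands for short motifs known from promoters of photosynthesis genes. The G-box CACGTG, bound by bZIP and bHLH factors, was found before 8 of the 38 genes (21.1%), and before 6.49% of 27443 nuclear protein-coding genes. The I-box GATAAG was found before 9 (23.7%, against 12.3%). CCAATC, reported at targets of the GLK transcription factors, was found before 11 (28.9%, against 10.2%). Its core CCAAT, which every CCAATC match contains, was found before 25 (65.8%, against 46%). AAAAATCT, a form of the site bound by the clock factor CCA1, was found before 5 (13.2%, against 6.69%), and the form AACAATCT before 1. TATAAA was found before 16 (42.1%, against 47.3%). A match is a string of letters and does not show binding. Some of the windows overlap another annotated gene. Among those with a G-box, this holds for LHCB6, PSBQ1, PSAE2 and PSAH2. The share of such windows over all genes was not computed. No annotated gene overlaps the windows of the genes printed below.

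Motifs were found before genes that passed and genes that did not, and no test was made. The G-box was found before 5 of the 26 genes that passed in the combined treatment and 3 of the 12 that did not, the I-box before 7 and 2, and CCAATC before 6 and 5. Of the 11 genes with CCAATC all but PSBQ2 were antenna genes. The promoters of the LHCB2 genes are shown because all 3 hold CCAATC at a like distance from the gene start while LHCB2.1 did not pass. LHCB4.1 is shown as a gene with G-box and CCAATC that did not pass, and PSBQ2 as one with 2 G-boxes that did. Each line is the 150 bases before the annotated gene start in RefSeq TAIR10.1, 5′ to 3′ on the gene's strand, and capitals mark matches of the G-box, the I-box and CCAATC on either strand. In order, the windows are chr2:1824481-1824630 (minus strand), chr2:1800473-1800622 (minus strand), chr3:10255756-10255905 (plus strand), chr5:208716-208865 (plus strand) and chr4:2673244-2673393 (minus strand).
LHCB2.1: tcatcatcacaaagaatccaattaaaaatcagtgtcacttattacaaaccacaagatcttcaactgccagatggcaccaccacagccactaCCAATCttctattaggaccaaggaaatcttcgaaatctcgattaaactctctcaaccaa
LHCB2.2: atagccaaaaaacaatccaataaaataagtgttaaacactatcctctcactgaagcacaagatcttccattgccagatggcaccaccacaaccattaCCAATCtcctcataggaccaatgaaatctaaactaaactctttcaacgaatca
LHCB2.3: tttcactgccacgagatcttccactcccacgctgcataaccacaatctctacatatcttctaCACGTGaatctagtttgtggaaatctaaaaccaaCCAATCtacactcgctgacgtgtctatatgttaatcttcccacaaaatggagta
LHCB4.1: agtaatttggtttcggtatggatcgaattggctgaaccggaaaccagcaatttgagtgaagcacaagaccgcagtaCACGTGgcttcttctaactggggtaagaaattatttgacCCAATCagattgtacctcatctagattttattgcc
PSBQ2: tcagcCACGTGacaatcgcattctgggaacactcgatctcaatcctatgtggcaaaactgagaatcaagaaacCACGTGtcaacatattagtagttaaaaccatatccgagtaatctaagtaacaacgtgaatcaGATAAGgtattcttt

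In these windows CCAATC begins 59, 53 and 54 bases before the start of LHCB2.1, LHCB2.2 and LHCB2.3.

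**Figure D5:**
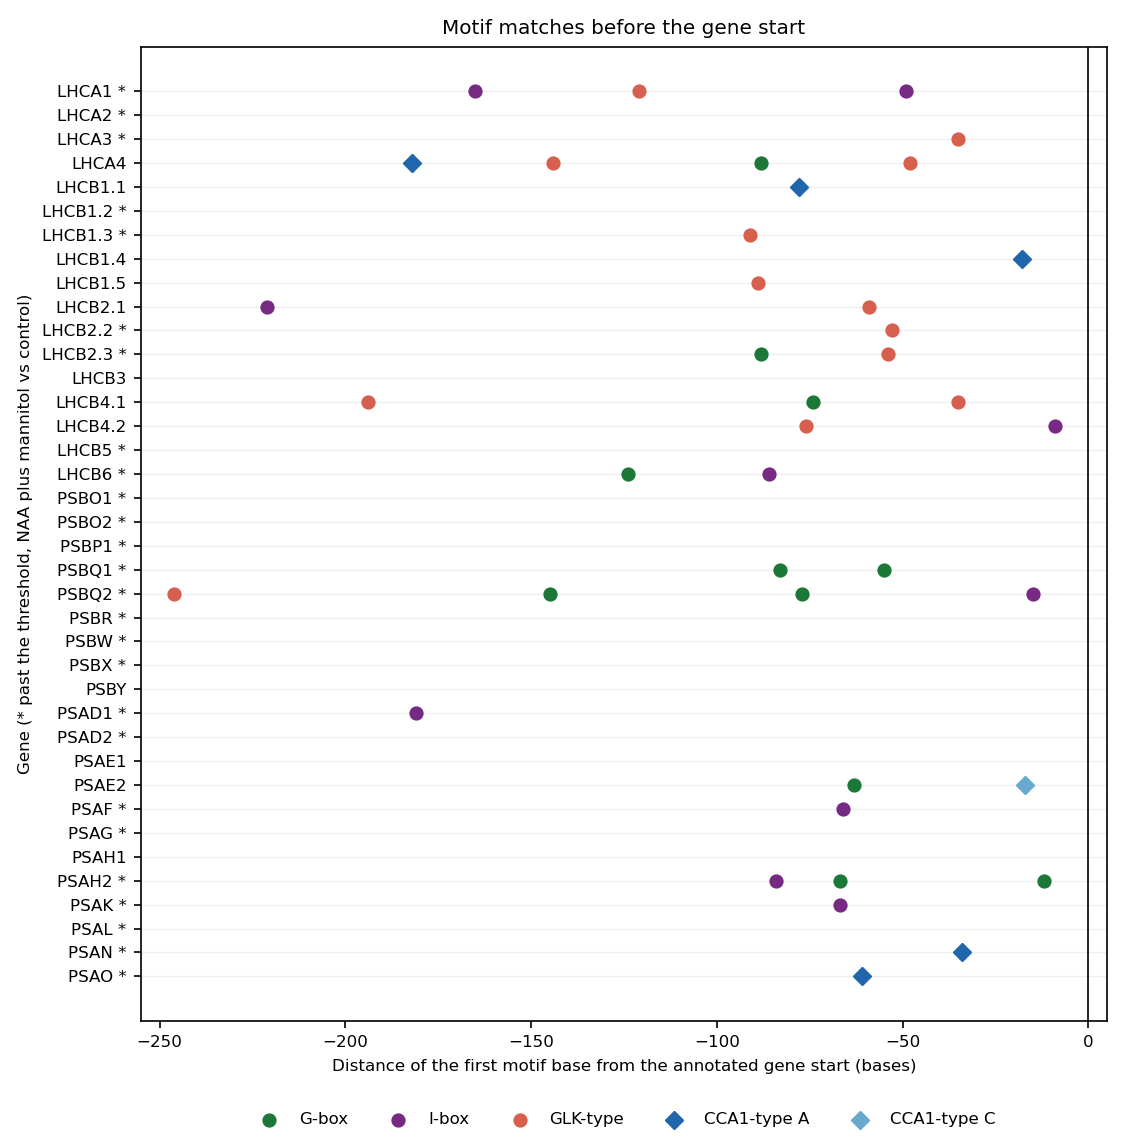
Position of motif matches in the 250 bases before the annotated start of each of the 38 genes (x axis, distance of the first motif base in bases); asterisks mark the 26 genes that passed in the combined treatment. G-box, I-box and CCAATC (GLK-type) matches occur before genes with and without an asterisk, and most CCAATC matches lie before antenna genes.

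Other genes of the photosynthetic apparatus were read beside the 38 from lists fixed by locus. In the combined treatment 9 of 14 genes of electron transport and the chloroplast ATP synthase passed, 11 of 18 genes of chlorophyll synthesis, and 5 of 9 rare antenna and antenna-like genes, where 26.3% of all genes passed. ATPD, of the ATP synthase, and FNR1, of ferredoxin-NADP reduction, had the smallest p-values of the first list (adjusted p = 8.08e-07 and 4.72e-06 computed from the authors' deposited table). PETC, the Rieske protein gene of the cytochrome b6f complex, had an adjusted p of 0.000545 with both and 0.0352 with mannitol, computed from the authors' deposited table. ATPD passed in all 3 comparisons (adjusted p = 4.72e-06 with mannitol and 0.0319 with NAA), and FNR1 with NAA too (adjusted p = 5.39e-05 computed from the authors' deposited table).

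In chlorophyll synthesis, CHLG, the gene of chlorophyll synthase, had an adjusted p of 8.29e-23 with both compounds, computed from the authors' deposited table. CHLI1 and CHLI2, both of a magnesium chelatase subunit, had 5.62e-12 and 1.13e-09, and PCB2, of divinyl protochlorophyllide reductase, 1.69e-08. All 4 adjusted values were smaller than that of any of the 38. None of the 4 passed with NAA or mannitol alone, where the smallest was 0.148, for CHLG with NAA. PORC, of protochlorophyllide reduction, passed in each comparison (adjusted p = 0.0172 with mannitol, 6.89e-05 with NAA and 7.8e-05 with both computed from the authors' deposited table). Under NAA 3 of the 18 passed (16.7%), near the 12.8% of all genes and the 17.4% of those whose p was under 1 throughout, with GSA1 and CHLD beside PORC (adjusted p = 0.0246 and 0.0268), and with mannitol PORC alone, computed from the authors' deposited table.

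Among the antenna-like genes OHP, the gene of a one-helix protein, had an adjusted p of 3.21e-06 with both compounds, computed from the authors' deposited table. PSBS (NPQ4 in RefSeq), required for energy-dependent quenching, passed with both and with mannitol (adjusted p = 0.000492 and 0.0415 computed from the authors' deposited table). The rare photosystem I antenna gene LHCA5 passed with both (adjusted p = 0.000628 computed from the authors' deposited table). Of 5 Rubisco and activase genes, 2 passed with both (26.3% of all genes), namely RBCS1B and RCA (adjusted p = 8.2e-05 and 0.0225 computed from the authors' deposited table). Genes for import, insertion and phosphorylation of antenna proteins passed in 1 of 8 cases with both compounds, a share of 12.5% that is below that of all genes, namely ALB3, the thylakoid insertase (adjusted p = 0.00792 computed from the authors' deposited table). With NAA 2 of the 8 passed (12.8% of all genes), the kinase gene STN8 (adjusted p = 0.000916) and CPSRP43 of the chloroplast signal recognition particle (0.0236 computed from the authors' deposited table).

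The regulator list passed in 4 of 10 cases with NAA (12.8% of all genes), 4 of 10 with both (26.3%) and 1 of 10 with mannitol (9.07%). Among genes whose p was under 1 throughout, 35.2% passed with both, near the 40% of this list. GLK1 (GPRI1 in RefSeq), a transcription factor of chloroplast development, passed with NAA (adjusted p = 0.000702) and not with both (0.904) or mannitol (0.546 computed from the authors' deposited table). GLK2 did not pass with NAA (adjusted p = 0.0676), mannitol (0.586) or both (1 computed from the authors' deposited table). GNC, a GATA factor of greening, passed in all 3 (adjusted p = 0.00029, 8.21e-08 and 1.09e-08 computed from the authors' deposited table). The sigma factor genes SIG2, SIG6 and SIG1, of chloroplast transcription, passed with both compounds (adjusted p = 0.000777, 0.00366 and 0.045 computed from the authors' deposited table). For 7 chloroplast-encoded core genes of the photosystems no value was analysed here.

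Markers of other cell types could not be given as levels. Epidermis and guard cell markers passed in 3 of 6 cases with mannitol (9.07% of all genes), 1 of 6 with NAA (12.8%) and 3 of 6 with both (26.3%). Of the guard cell genes, KAT1 and MYB60 passed with both (adjusted p = 1.85e-06 and 6.94e-06) and FAMA did not (0.119), computed from the authors' deposited table. FAMA is outside the rule for named genes and was added after its value was seen. Vascular markers passed in 0, 0 and 1 of 3 cases, and root and shoot meristem markers in 0 of 3 each in every comparison. Whether root and meristem markers were expressed was not analysed, so 0 of 3 does not show that they were unchanged. The part of a changed cell make-up in the calls of the 38 genes was not tested.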

How the data were processed

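RNA-seq of 12 samples in 4 groups was read as 3 columns of p-values, 1 for each treatment against control, per the file headers. Each of these headers ends in Detection Pval, a term that the sources used do not explain. The deposited p-values were used as the authors gave them; no source used here states the test behind them. The submitters' processing notes name TAIR10 as the build. No count model was run: the headers of 24 library columns match no sample label, so they were left out, and depth is not analysed here. Benjamini-Hochberg adjustment ran over 28642 genes in Python 3.11.15 (numpy 2.4.6), after a check on simulated data, with a threshold of 0.05. Gene models and sequences came from RefSeq TAIR10.1, matched by locus (28009 genes, all 38 members). No coordinate was carried between builds. Coding sequences of the longest product were aligned globally (Biopython 1.88), and windows of 50 transcript bases were compared with all annotated nuclear transcripts. All 38 members could be named, and up to 4 genes with the smallest p of each other list, with GLK1 and GLK2. Of 86 other listed loci in 11 lists, 79 had values. PETC under mannitol falls within this rule, and its value with both compounds is given beside it. Members and lists were chosen with earlier results of these data known.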

Additional observations from a re-analysis of the deposited data

How the results depend on the processing

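No paired analysis was possible because no library column could be tied to a sample or its replicate, and for the same reason the planned count models, filters and left-out replicates were not run. Counts below are for mannitol, NAA and both compounds. An unadjusted 0.05 gave 7 and 15 of the 38 genes with mannitol and NAA, and 5129 and 6243 of all genes. Bonferroni adjustment left 0, 0 and 3 of the 38, and 698, 948 and 2423 of all genes. Student's t with 4 degrees of freedom left 0 of the 38 in each, and 0 of all genes with a p of 0 at its lowest z, 8.29. Deposited p-values above 0 went down to 1.75e-97, 9.98e-123 and 8.36e-288, far smaller than the p of that z. A z of 8.29 is thus too low for genes at a p of 0, and the 0 of all genes depends on that choice. Setting p-values of 0 to the highest z instead, an alternative chosen after seeing the data, 79, 83 and 610 of all genes passed and 0 of the 38, with a smallest adjusted p of 0.0826 among them. The construction of these settings sets the counts, since each changes the p a gene needs. An unadjusted 0.01 gave 3, 6 and 25 of the 38, and 3095, 4096 and 7181 of all genes. Adjustment over genes whose p was under 1 throughout gave 3, 6 and 28 of the 38. In that setting 2768 genes passed with mannitol and 4054 with NAA. Leaving out genes at a p of 0 gave 3, 5 and 26 of the 38, where 2504 genes passed with mannitol and 3578 with NAA. The counts of all genes with both compounds in these last settings are not given here. In the main setting 26 of the 38 and 7535 of all genes passed with both. The unadjusted 0.01 and the adjustment over genes whose p was under 1 throughout moved few calls, and leaving out genes at a p of 0 none. Between them they moved PSBO1 with NAA, LHCB1.1 and PSAE1 with both past the threshold, and PSBX with both short of it. The other settings moved more member calls over the 3 comparisons. An unadjusted 0.05 moved 19 past the threshold, while Bonferroni adjustment moved 31 and Student's t 34 short of it. The deposited values give no depth.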
